A study of Mus musculus with 16 samples.

Results

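The RNA of cell protrusions was compared with the RNA of the remaining cell bodies in control cells. The cells were NIH/3T3, an immortalized mouse embryonic fibroblast line, and all of them carried a non-targeting control siRNA (siControl). They were starved of serum and placed for 2 h on a membrane with pores of 3 µm. Lysophosphatidic acid (LPA), a serum lipid that attracts fibroblasts, was then given from below for 1 h, and 0.3% paraformaldehyde was applied for 10 min. Protrusions (Ps) were collected from under the membrane and cell bodies (CB) from above it, with material of 3 filters used for Ps and of 1 filter for CB. Members were chosen by the labels for siRNA and fraction, which gave 4 siControl Ps and 4 siControl CB libraries, 8 of the 16 libraries of the series. The other 8 libraries came from the same fractions of cells given an siRNA against Apc (siAPC). They entered the fit only to share its estimate of spread, except where siAPC is named. All 13015 listed genes were compared. Values are log2 CPM, the log2 of reads relative to a common library size, which the authors scaled between libraries, and a difference of 1 on this scale is a doubling. Relative amounts only were measured: the RNA mass of each fraction is not in the values, and more cell material in a fraction cannot be told apart from more RNA per unit of it.

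Migrating fibroblasts extend actin-rich protrusions toward an attractant, while the nucleus, most of the rough endoplasmic reticulum (ER) and the Golgi lie in the cell body. Many mRNAs are carried along microtubules and held at the cell edge, often through sequences in their 3′ UTRs. mRNAs of secreted and membrane proteins are translated on the ER, mRNAs of most cytoplasmic proteins on free ribosomes, and mRNAs of the mitochondrial genome inside mitochondria. Nuclear noncoding RNAs stay near chromatin or in nuclear bodies.

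Listed reads per library ranged from 13466225 to 20129502 with a median of 16311500, and 3 reads corresponded to a log2 CPM of -2.73 to -1.80. The study calls the 4 libraries of a group independent replicates, and no pair within a group agreed to within counting noise (lowest chi-square per degree of freedom 2.00 over 12 pairs). CB replicates 1 and 2 (2.00) and Ps replicates 3 and 4 (2.51) were closer to each other than the libraries of the other 10 pairs (7.96 to 26.4). Libraries differed by base composition. In CB replicate 3 and Ps replicate 2 the deviation of a gene from the other libraries of its group fell with GC content, with Spearman correlations of -0.53 and -0.61 across 10238 genes, which share the same libraries. In the other 6 siControl libraries these correlations were above 0, from 0.055 in Ps replicate 1 to 0.45 in CB replicate 1. Of 15 fibroblast markers 13 were listed, with a summed level of 38646 to 42001 CPM in CB and 23076 to 25523 CPM in Ps. In Ps 2 of them were higher (Vim and S100a4) and 7 were lower. For epithelial cells 3 of 12 markers were listed, with a summed level of 268 to 354 CPM in CB and 263 to 313 CPM in Ps. For immune cells 4 of 12 were listed (24.3 to 31.7 CPM over both fractions), and for endothelial cells 2 of 9 (0.211 to 1.90 CPM). The defining markers Epcam, Ptprc and Cdh5 were not listed.

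Most RNAs differed between the fractions, mostly by little. In the limma fit with Benjamini-Hochberg adjustment 3792 RNAs (29.1%) had higher values in Ps and 4058 (31.2%) in CB at an adjusted p below 0.05. Of these 7850 calls, 77.4% were under 2-fold. The rule of the study for enrichment, over 2-fold with an unadjusted p below 0.05, gave 936 Ps-enriched RNAs (7.19%), and its mirror gave 888 CB-enriched RNAs (6.82%). The 4 Ps values lay all above or all below the 4 CB values for 6574 RNAs (50.5%). The median absolute log2 ratio was 0.45, the median standard error was 0.12, and the 5th and 95th percentiles of the ratio were -1.13 and 1.21. The zero of the ratio depends on the scaling. With the scaling of the authors the median log2 ratio of all genes was -0.00091. With each library scaled to its total of listed reads the median was -0.30, and 2005 RNAs were higher in Ps against 6193 in CB. Ratios below therefore describe a gene relative to the median gene.

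**Figure D1:**
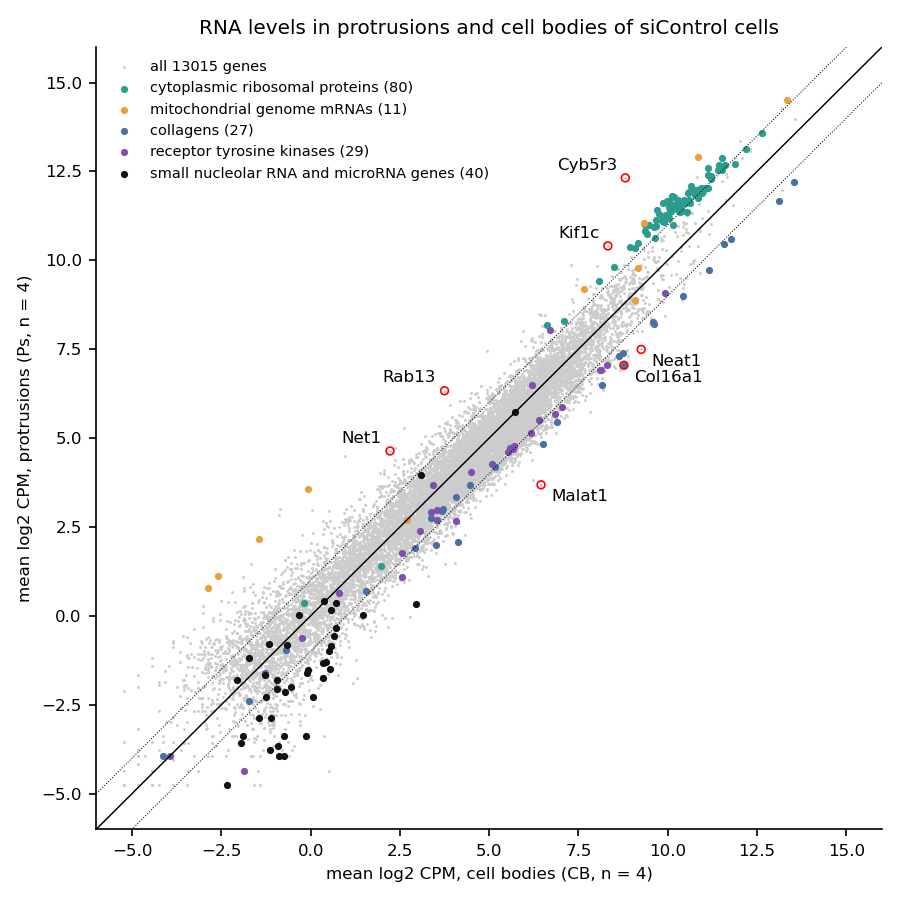
Mean log2 CPM of each of the 13015 genes in siControl CB (x axis) and siControl Ps (y axis), 4 libraries each, with selected gene lists in color, named genes circled, equality as a line and 2-fold as dotted lines. Ribosomal protein mRNAs lie along the upper dotted line and collagens along the lower one.

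The highest ratios are given for genes with a mean log2 CPM of at least 3, leaving out mitochondrial, predicted and pseudogene entries. The rule for these genes, and for the 15 lowest ratios, required an adjusted p below 0.05 and no overlap between the 4 Ps and 4 CB values, so their separation is not a finding. Cyb5r3, which encodes the membrane-bound NADH-cytochrome b5 reductase (chr15:83153494-83172592, minus strand, mm10), had 8.93, 8.85, 8.71 and 8.75 log2 CPM in CB and 12.50, 12.14, 12.39 and 12.24 in Ps. The groups were far apart, with a log2 ratio of 3.51 (SE 0.092, adjusted p 4.88e-15), or 11.4-fold. Rab13, a small GTPase of membrane traffic (chr3:90213695-90226385, plus strand), had 3.70, 3.85, 3.53 and 3.92 in CB and 6.62, 6.41, 6.20 and 6.09 in Ps. All Ps libraries exceeded all CB libraries, and the difference was 5.98-fold (log2 ratio 2.58, SE 0.101, adjusted p 1.12e-12).

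Net1 encodes an exchange factor that activates RhoA (chr13:3882018-3918220, minus strand). Its levels were 2.28, 2.21, 2.10 and 2.30 in CB and 4.68, 4.50, 4.73 and 4.63 in Ps, a log2 ratio of 2.42 (SE 0.122, adjusted p 1.75e-11). Kif1c, a kinesin motor that moves cargo toward microtubule plus ends (chr11:70700548-70731964, plus strand), had 8.45, 8.40, 8.14 and 8.29 in CB and 10.51, 10.16, 10.56 and 10.38 in Ps, a log2 ratio of 2.08 (SE 0.104, adjusted p 1.61e-11). Cplx2, a complexin that binds the membrane fusion complex of synapses and was low here, had 2.74, 2.63, 2.46 and 2.64 in CB and 5.42, 5.18, 5.41 and 5.11 in Ps (log2 ratio 2.66, SE 0.115, adjusted p 3.48e-12).

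The other genes among the 15 highest ratios had log2 ratios between 1.81 and 2.26. They were Cenpb, a centromere binding protein, Kank2, a cortical adhesion scaffold, and Dynll2, a light chain of dynein and myosin V. They also held Gas5, a snoRNA host RNA, Trp53inp2, an autophagy factor, Zbtb12, a zinc finger protein, Rpl22l1, a paralog of a ribosomal protein, and Scd1, a desaturase of fatty acids in the ER. The remaining members were Sh3bgrl, a small adaptor-like protein, and Npm1, the nucleolar protein nucleophosmin. In Sh3bgrl (4.80) and Npm1 (8.40) CB replicate 3 stood above the other CB libraries, which spanned 3.51 to 3.68 and 7.05 to 7.20.

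The study names 5 RNAs as localized, which it also calls APC-dependent, and 2 as diffuse examples. They were listed here with the results of these samples known, so their direction is not independent evidence. The localized RNAs had log2 ratios of 3.51 (Cyb5r3), 2.58 (Rab13), 2.10 (Kank2), 1.59 (Pkp4, a plakophilin of cell junctions) and 1.33 (Ddr2, a collagen receptor). All 5 were Ps-enriched. The diffuse RNAs were also higher in Ps, by 1.56-fold for Arpc3, a subunit of the Arp2/3 complex (adjusted p 7.82e-08), and by 1.38-fold for Rhoa, the GTPase (adjusted p 2.53e-06). With the trend of each library on GC content and length removed, the log2 ratio of Arpc3 was 0.05 and its call was lost.

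**Figure D2:**
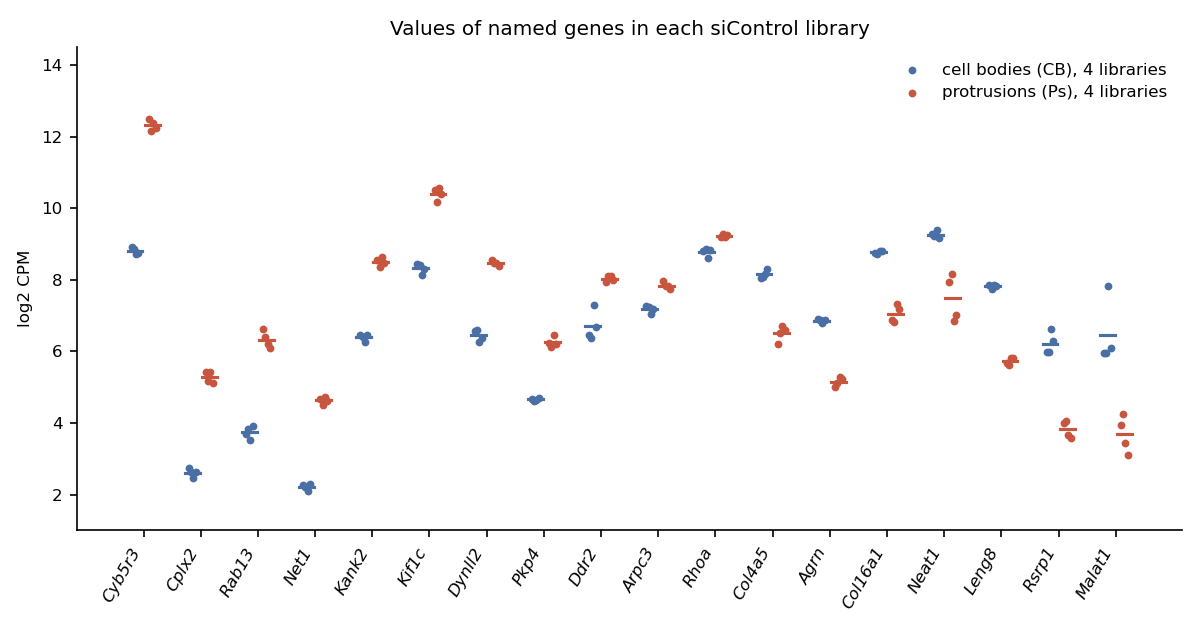
Log2 CPM in each of the 4 CB and 4 Ps siControl libraries for the genes named by the study and those with the highest and lowest ratios; each point is a library and each bar a mean. The genes with the highest and lowest ratios were chosen for no overlap between fractions, which the plot therefore shows, and Cyb5r3 lies at 8.71 to 8.93 in CB and 12.14 to 12.50 in Ps.

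Repeats rich in G and A have been described in 3′ UTRs of protrusion mRNAs, so the deposited ratios were set beside the letters GAAGAAG, searched on the transcript strand with overlapping copies counted. A stretch of 27 bases from the 3′ UTR is shown for each of 2 highly Ps-enriched mRNAs, with the first copy in capitals (GENCODE M21). Both hold the letters, so they do not represent the Ps-enriched mRNAs without them.
Rab13: aagaggaaagGAAGAAGaaatgaatgg
Cplx2: aggagaaggaGAAGAAGaagaagaaga
The 3′ UTR of Rab13 (389 bases) held 1 copy, and that of Cplx2 (4211 bases) held 26, the first at base 416. Over all coding genes with a mean log2 CPM of at least 1 and a 3′ UTR of at least 100 bases, 1284 of 9176 (14%) held the letters. They were in 33 of 325 Ps-enriched mRNAs (10.2%) and in 71 of 514 CB-enriched mRNAs (13.8%). Copies per kilobase were 0.119 in all genes, 0.157 in Ps-enriched genes and 0.111 in CB-enriched genes, and 0.0981 in Ps-enriched genes without Cplx2. The share of genes with these letters was not higher in the Ps-enriched group, and its higher density rested on Cplx2. Median 3′ UTR length was 697 bases in Ps-enriched genes, 1018 in CB-enriched genes and 1058.5 in all genes. A shorter 3′ UTR has less room for the letters, so the shares of genes alone cannot be compared between these groups. The search says nothing of other sequences or of any factor.

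Of the 10 RNA classes whose share of reads was compared, mRNAs for ribosomal proteins took the largest share in Ps. In mammals these mRNAs, like those of elongation factors, start with an unbroken run of pyrimidines at the 5′ end through which their translation is controlled. Windows of 30 bases around the first annotated start (15 bases each side, RefSeq, GRCm38.p6) are shown for 7 of them, with the longest run of C and T in capitals. They were chosen after values were seen, from members that hold a run of at least 8 letters C or T, so they do not represent the members without one. Genes of 1 chromosome were passed over in this choice. The annotated start lies after base 15 of each window. The marked runs of Rps24, Rps6 and Eef1a1 span it. Those of Rpl31 and Rpl4 lie wholly before it and those of Rps26 and Rpl39 begin after it, so by this annotation these mRNAs do not start with the marked run.
Rps24, chr14:24490663-24490692, plus strand: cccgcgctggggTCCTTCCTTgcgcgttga
Rps6, chr4:86857353-86857382, minus strand: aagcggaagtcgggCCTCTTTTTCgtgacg
Rps26, chr10:128626492-128626521, minus strand: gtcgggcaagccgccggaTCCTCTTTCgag
Rpl31, chr1:39367836-39367865, plus strand: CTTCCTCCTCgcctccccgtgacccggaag
Rpl39, chrX:37085208-37085237, minus strand: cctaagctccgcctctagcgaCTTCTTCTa
Rpl4, chr9:64173372-64173401, plus strand: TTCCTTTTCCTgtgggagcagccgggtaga
Eef1a1, chr9:78481710-78481739, minus strand: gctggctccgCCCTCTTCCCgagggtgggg
A run of at least 8 letters C or T, on the transcript strand, was present in this window of 9 of 24 genes for 40S proteins (37.5%) and 15 of 35 for 60S proteins (42.9%) that had a promoter entry, against 1078 of 9107 listed coding genes (11.8%). It was also present in 7 of 21 collagen genes (33.3%) and 4 of 11 integrin genes (36.4%), lists in which most members were higher in CB, and in 4 of 8 snoRNA host genes, most of which were higher in Ps. Among elongation factors it was found in 1 of 7, and among initiation factors in 5 of 33 (15.2%). A run in this window is a description of letters, not of a start site in use.

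All 32 listed mRNAs for proteins of the small (40S) ribosomal subunit were higher in Ps, with 28 Ps-enriched and a median log2 ratio of 1.29 (range 0.91 to 1.70), against a median of -0.00091 for all genes. Of 48 for the large (60S) subunit, 46 were higher in Ps, 1 was higher in CB, 37 were Ps-enriched, and the median was 1.24. Rps24, with 10.23, 10.20, 10.02 and 10.03 log2 CPM in CB and 12.14, 11.96, 11.58 and 11.60 in Ps, had the highest ratio of the small subunit (1.70, SE 0.108, adjusted p 2.51e-10). Rps3, whose protein lies at the mRNA entry site, had 10.95, 10.96, 10.62 and 10.82 in CB and 11.95, 11.70, 11.68 and 11.66 in Ps, a log2 ratio of 0.91. Both genes had higher values in every Ps library than in any CB library. Rpl7 (1.76) and Rpl21 (1.73) had the highest ratios named for the large subunit.

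Near-identical copies make the levels of this group uncertain: 13 of 32 genes for 40S proteins and 19 of 48 for 60S proteins share over 50% of their 50-base stretches with another listed gene. Rps3, Rps24 and Rpl39 share 0%, 18.1% and 11.5%. GC content and length moved with the group. After their trend was removed from each library the medians were 0.62 and 0.69 for the small and the large subunit, in the same direction as the deposited values. With quantile normalization of the libraries they were 0.55 and 0.50.

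As shares of listed reads, mRNAs for the 80 ribosomal proteins took 13%, 13.1%, 11.7% and 12.2% of CB libraries and 26.0%, 23.7%, 21.8% and 22.1% of Ps libraries. The means were 12.5% ± 0.669 and 23.4% ± 1.95 (SD, n = 4 each), a ratio of 1.87, with an exact two-sided permutation p of 0.0286. That p is the smallest that 4 against 4 can give, and 9 of the 10 RNA classes compared reached it (adjusted p 0.0317 over 10 classes). For Malat1 with Neat1, genes chosen for no overlap between fractions, it follows from that choice and is not a finding. Shares do not depend on the scaling between libraries.

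mRNAs for other parts of the translation machinery were tilted to Ps. Of 9 elongation factors and related genes 8 were higher in Ps (median 0.78, or 0.80 with the GC and length trend removed and 0.30 with quantile normalization). Eef1b2, a nucleotide exchange subunit of eEF1, had a log2 ratio of 1.17, and Eef1a1, which brings aminoacyl-tRNA to the ribosome, 1.08. Tpt1, the translationally controlled tumor protein, had 1.52. The member higher in CB was Eef2k, the kinase that inhibits eEF2 (-0.39, adjusted p 0.00643), and this call was lost with the GC and length trend removed (-0.08). Of 43 initiation factors 34 were higher in Ps, 2 were higher in CB, 6 were Ps-enriched, and the median was 0.60. Eif3e, a subunit of eIF3, had 7.26, 7.23, 7.60 and 7.22 in CB and 9.14, 9.02, 8.70 and 8.74 in Ps (log2 ratio 1.57, SE 0.122). No Ps library reached down to a CB library. The factors higher in CB were Eif4g1, the large scaffold of the cap-binding complex (1.57-fold, adjusted p 1.12e-06), and Eif3j1 (1.61-fold, adjusted p 0.00148), which shares 39.4% of its 50-base stretches with another gene.

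Among 22 aminoacyl-tRNA synthetases and their scaffolds 14 were higher in Ps and 3 in CB (median 0.24), from Aimp1, a scaffold (1.14), to Mars, the methionyl enzyme (-0.39). Among 40 ribosome biogenesis factors 21 were higher in Ps and 5 in CB (median 0.26). Ncl, nucleolin, had 5.87, 5.80, 7.15 and 5.92 in CB and 7.97, 8.26, 7.54 and 7.52 in Ps (log2 ratio 1.64, SE 0.248), with CB replicate 3 nearest to Ps. Polr1b, a large subunit of RNA polymerase I, was lower in Ps (1.55-fold, adjusted p 2.51e-06). With scaling to total reads, and with no shift for the median gene, the medians of synthetases and biogenesis factors became negative. Ribosomal proteins of mitochondria, which are made from nuclear genes, were higher in Ps for 67 of 76 and higher in CB for 0, with 8 Ps-enriched and a median of 0.52, or 0.22 with the GC and length trend removed. Mrpl42 (1.63) and Mrpl30 (1.34) had the highest ratios named.

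**Figure D3:**
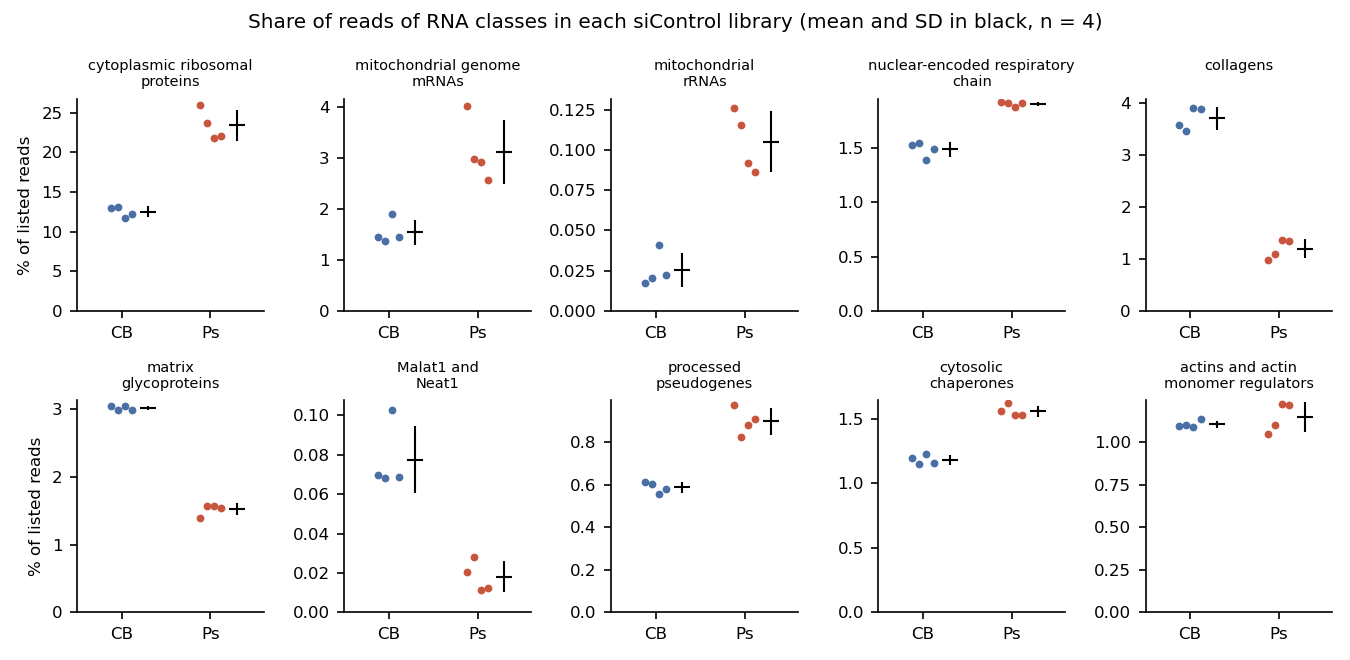
Percent of listed reads taken by RNA classes in each of the 4 CB and 4 Ps siControl libraries; points are libraries and black marks are the mean with the SD. Ribosomal protein mRNAs take 11.7% to 13.1% of CB and 21.8% to 26.0% of Ps, and collagen mRNAs take 3.46% to 3.91% of CB and 0.981% to 1.37% of Ps.

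Processed pseudogenes, copies of mRNAs in the genome that lack introns, were higher in Ps too. Of 547 listed 342 were higher in Ps, 8 in CB, and 289 (52.8%) were Ps-enriched, with a median log2 ratio of 1.21. They are 289 of the 936 Ps-enriched entries. At least 50% of the 21-base stretches of 463 of them occur in a listed coding gene. For 213 the closest such gene is on the lists of ribosomal proteins, and these had a median of 1.57 beside a median of 1.28 for the closest genes. Reads of a parent mRNA can be counted for such a copy, and how many were is not known here. Of the 84 with less shared sequence 46 were Ps-enriched, with a median of 1.37. The median level of processed pseudogenes was -0.10 log2 CPM. Genes were kept that passed a minimum in at least 1 library, so a scarce RNA can be listed through the fraction where it is high. The counts and medians of these entries are not free of that filter, and its part in them was not tested. No pseudogene is named. Among protein-coding genes alone 533 of 11486 (4.64%) were Ps-enriched and 772 (6.72%) were CB-enriched.

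RNAs for mitochondrial energy production were higher in Ps from both genomes. Of 11 mRNAs of the mitochondrial genome 9 were higher in Ps, 8 were Ps-enriched, and the median log2 ratio was 1.73, or 0.85 with the GC and length trend removed. mt-Nd1, a subunit of complex I, had 10.50, 10.46, 11.49 and 10.91 in CB and 13.38, 12.94, 12.71 and 12.62 in Ps (log2 ratio 2.07, SE 0.206, adjusted p 6.37e-08). mt-Cytb, of complex III, had 9.07, 8.99, 10.15 and 9.11 in CB and 11.60, 11.14, 10.78 and 10.70 in Ps (log2 ratio 1.73, SE 0.224). In both, CB replicate 3 was the highest CB library and still below every Ps library. mt-Nd5 (-0.20, adjusted p 0.184) and mt-Nd6 (0.01, adjusted p 0.977) did not pass the test. With the GC and length trend removed, mt-Nd6 was lower in Ps and passed it. Of the others, mt-Co1, of complex IV, had 1.18, mt-Nd4 1.55 and mt-Nd2 0.64, which turned to -0.48 with the GC and length trend removed. The ratios of mt-Co2, mt-Co3, mt-Atp6 and mt-Nd3 lay between 3.62 and 3.71, but at least 98.0% of their 50-base stretches occur in another gene and their levels were low, so they are uncertain. That of mt-Co3 rests on 10 to 28 CB reads and 116 to 238 Ps reads. The whole class took 1.54% ± 0.245 of listed reads in CB and 3.13% ± 0.630 in Ps (SD, n = 4 each).

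The mitochondrial rRNAs, added to the text after their values were seen, had ratios above the median of the mitochondrial mRNAs (1.73). mt-Rnr1, of the small ribosomal subunit of mitochondria, had 6.97, 7.18, 7.75 and 7.30 in CB and 10.25, 9.91, 9.68 and 9.58 in Ps (log2 ratio 2.56, adjusted p 2.3e-10). mt-Rnr2, of the large subunit, had 5.38, 5.69, 7.09 and 5.60 in CB and 8.47, 8.26, 7.77 and 7.54 in Ps (log2 ratio 2.07, adjusted p 8.93e-06). Their joint share was 4.18 times as large in Ps. The sources differ on whether the library kit took total RNA or mRNA, which bears on how RNAs without a long poly(A) tail are represented.

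Of 78 nuclear genes for respiratory chain subunits 75 were higher in Ps, 0 in CB, and 17 were Ps-enriched, with a median of 0.75. Cox7b, a small subunit of cytochrome c oxidase, had 6.23, 6.18, 6.19 and 6.13 in CB and 7.99, 7.89, 7.55 and 7.61 in Ps (log2 ratio 1.58, SE 0.0877, adjusted p 5.2e-11). Its CB libraries lay close together, and the Ps libraries were all higher. Uqcrb, a small subunit of complex III, had a ratio of 1.41. Uqcrc1, a large core subunit of the same complex, had -0.04 and did not pass the test (adjusted p 0.688). With the GC and length trend removed the median of the list was 0.23, and the call of Uqcrb was lost (0.17). The list took 1.49% ± 0.0697 of reads in CB and 1.90% ± 0.0192 in Ps.

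Of 18 genes of the TCA cycle, in the mitochondrial matrix, 13 were higher in Ps and 1 in CB (median 0.37, or 0.32 with the GC and length trend removed), led by Sucla2, a succinyl-CoA ligase subunit (1.16). Of 17 glycolytic enzymes 8 were higher in Ps and 0 in CB (median 0.19, or 0.27 with that trend removed), among them Pgk1 (0.80) and Gapdh (0.67), which share 68% and 87.7% of their 50-base stretches with other genes. Carriers of the SLC25 family, which sit in the inner mitochondrial membrane and were examined after values were seen, were close to the shares over all genes, with 10 of 36 (27.8%) higher in Ps and 12 (33.3%) in CB (median -0.07). Slc25a4, an ADP/ATP carrier, had 0.80, and Slc25a37, an iron importer, had -0.91. For cholesterol and fatty acid synthesis 8 of 30 (26.7%) were higher in Ps and 14 (46.7%) in CB, beside 29.1% and 31.2% over all genes. The median was -0.19, or -0.072 with that trend removed. Scd1 had 8.10, 8.07, 7.95 and 8.0 in CB and 10.00, 9.96, 9.76 and 9.62 in Ps, while Srebf1, a transcription factor that drives lipid synthesis, was lower in Ps by 2.57-fold and Dhcr7, a late enzyme of cholesterol synthesis, by 2.17-fold.

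mRNAs for actin and myosin machinery were moderately higher in Ps. All 9 subunits of the Arp2/3 complex, which nucleates branched actin, were higher in Ps, with a median log2 ratio of 0.51 (0.27 with the GC and length trend removed) and 0 Ps-enriched. They ranged from Arpc1b (0.72, 1.65-fold) to Actr3 (0.16, adjusted p 0.0433). Scaling to total reads turned the ratios of Actr3 to -0.14 and of Arpc4 to -0.0032. The call of Actr3 was also lost without any of CB replicates 1 and 2 and Ps replicates 2, 3 and 4, one at a time, and in a fit of siControl libraries only. Of 23 actins and regulators of actin monomers 19 were higher in Ps (median 0.45). The 2 Ps-enriched members sequester monomers: Tmsb4x, thymosin beta 4, had 6.48, 6.58, 6.19 and 6.33 in CB and 8.08, 8.01, 7.64 and 7.70 in Ps (2.76-fold), and Tmsb10 was higher by 2.36-fold. As a share of reads the list did not pass the test (1.11% ± 0.0204 in CB, 1.15% ± 0.0886 in Ps, exact permutation p 0.343).

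Of 15 myosin II subunits and tropomyosins 12 were higher in Ps and 0 in CB (median 0.51), among them Myl6b, a light chain (2.96-fold), and Tpm4 (1.71-fold). Of 10 septins, GTPases that form cortical filaments, 6 were higher in Ps and 0 in CB (median 0.45). Sept7 had 3.60, 3.79, 4.96 and 3.77 in CB and 5.49, 6.0, 5.17 and 5.37 in Ps (log2 ratio 1.48, SE 0.251), and CB replicate 3 came close to the lowest Ps library. Of 45 focal adhesion proteins 13 (28.9%) were higher in Ps and 19 (42.2%) in CB, beside 29.1% and 31.2% over all genes. Their median was -0.04, and it turned to 0.19 with the GC and length trend removed. Palld, palladin, an actin crosslinker, was higher in Ps by 3.10-fold, and Crkl, an adaptor, was higher in CB by 2.19-fold.

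Of 31 kinesins 6 (19.4%) were higher in Ps and 8 (25.8%) in CB, beside 29.1% and 31.2% over all genes (median 0.01). The Ps-enriched members were Kif1c and Kif5b, the heavy chain of conventional kinesin, with 2.87, 3.04, 4.12 and 3.19 in CB and 4.65, 5.12, 4.99 and 4.91 in Ps (log2 ratio 1.61, SE 0.222, adjusted p 4.04e-06). Kif18b, a mitotic kinesin, was lower in Ps by 2.07-fold, and Kif5a, a paralog of Kif5b, was CB-enriched (log2 ratio -1.19, adjusted p 0.000141). Dynein and dynactin subunits were tilted to Ps, with 16 of 27 higher there and 3 in CB (median 0.33). Dynll2 (4.05-fold) and Dynlt3 (2.24-fold), both light chains, were Ps-enriched, and Bicd2, a cargo adaptor, was CB-enriched (2.03-fold). Tubulins had 3 of 14 (21.4%) higher in Ps and 2 (14.3%) in CB (median 0.05). Microtubule-associated proteins had 10 of 30 (33.3%) higher in Ps, close to the share over all genes, and 5 (16.7%) in CB, led by Map1b (2.10-fold). Their median was 0.16, or 0.32 with the GC and length trend removed, and relative to all genes 0.090 to 0.16 with a library left out. Of 43 Rab GTPases 18 were higher in Ps and 7 in CB, with Rab13 highest. The median was 0.19, or 0.074 with the GC and length trend removed.

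mRNAs of protein quality control were higher in Ps. Of 40 proteasome subunits and activators 32 were higher in Ps and 0 in CB (median 0.43, or 0.21 with the GC and length trend removed), but 1 was Ps-enriched, Psmc6, an ATPase of the cap (2.54-fold). Of 33 chaperones, of which Hspe1, Hspd1 and Hspa9 act in mitochondria and most others in the cytosol, 25 were higher in Ps, 3 in CB, and 5 were Ps-enriched (median 0.68). Hsp90aa1, the inducible HSP90, had 4.05, 4.03, 5.52 and 3.97 in CB and 5.80, 6.18, 5.47 and 5.48 in Ps (log2 ratio 1.34, SE 0.284). CB replicate 3 overlapped the Ps libraries. Hspe1, the cochaperonin of mitochondria (2.35-fold), and Pfdn1, a prefoldin subunit (2.29-fold), showed no overlap. Hspa1a, an inducible HSP70, was lower in Ps (1.92-fold, adjusted p 2.94e-06), with 60.3% of its 50-base stretches shared with another gene. Chaperone mRNAs took 1.18% ± 0.0357 of reads in CB and 1.56% ± 0.0422 in Ps.

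Malat1 and Neat1, nuclear noncoding RNAs, were among the 15 lowest ratios. Malat1, a long RNA of nuclear speckles (chr19:5795690-5802672, minus strand), had 5.96, 5.95, 7.82 and 6.08 log2 CPM in CB and 3.94, 4.25, 3.44 and 3.11 in Ps. As the rule for these genes required, every Ps library was lower than every CB library. CB replicate 3 was the highest by far. The difference was 6.81-fold (log2 ratio -2.77, SE 0.352, adjusted p 1.59e-06). Neat1, the scaffold of paraspeckles (chr19:5824708-5845478, minus strand), had 9.27, 9.21, 9.38 and 9.17 in CB and 7.92, 8.18, 6.85 and 7.02 in Ps (log2 ratio -1.76, SE 0.270, adjusted p 1.52e-05). Together they took 0.0775% ± 0.0170 of CB reads and 0.0181% ± 0.00782 of Ps reads, a share 4.28 times as large in CB. Both had been chosen for no overlap between fractions, so a permutation test of this share decides nothing. Of 12 nuclear long noncoding RNAs on the list 7 were present, 4 higher in CB, of which 3 were CB-enriched, and 2 in Ps, one of which was Pvt1 (1.6-fold), with a median log2 ratio of -0.89. 

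The short nuclear RNAs and microRNA genes that were listed were mostly lower in Ps. Of 25 small nucleolar RNAs, which guide the modification of rRNA, 16 were CB-enriched and 1, Snord104, was higher in Ps (median log2 ratio -1.42). Snord104 was also the single member with a mean log2 CPM of at least 1, so the median rests on members with few reads. Of the microRNA genes below, 2 had such a mean. Scarce RNAs can be listed through CB alone if they are high there. The tilt of both lists to CB is therefore not free of the filter on low values, whose part was not tested. Of 15 microRNA genes 11 were CB-enriched and 0 were higher in Ps (median -1.50, or -1.46 with a member that had 0 Ps reads set at its bound of 3 reads). Among all 22 entries that the annotation types as miRNA 14 were higher in CB and 2 in Ps, with 3 Ps-enriched. Of the host genes of small nucleolar RNAs, 8 of 11 were higher in Ps and 1 in CB (median 0.79), from Gas5 (4.02-fold higher in Ps) to Snhg3 (2.09-fold higher in CB), which shares exonic sequence with Snora73a on the same strand.

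Hairpins of 2 known microRNAs in this group are printed, with the mature strands in capitals (RefSeq, GRCm38.p6). They were chosen after values were seen, as microRNAs with a RefSeq entry.
Mir31, chr4:88910557-88910662, minus strand: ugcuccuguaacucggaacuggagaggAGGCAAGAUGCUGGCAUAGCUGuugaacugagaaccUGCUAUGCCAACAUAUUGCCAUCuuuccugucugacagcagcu
Mirlet7b, chr15:85707319-85707403, plus strand: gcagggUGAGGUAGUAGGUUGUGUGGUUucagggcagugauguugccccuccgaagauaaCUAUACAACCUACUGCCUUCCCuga
Mir31 had 0.81, 0.34, 0.91 and 0.57 log2 CPM in CB and -0.55, -0.52, -0.28 and -0.92 in Ps (log2 ratio -1.23, adjusted p 0.000531), from 21 to 43 CB reads and 7 to 12 Ps reads. Mirlet7b had -0.03, 0.12, -0.18 and -0.17 in CB and -3.05, -0.71, -1.22 and -1.13 in Ps (log2 ratio -1.46, adjusted p 0.0142), from 16 to 20 CB reads and 1 to 7 Ps reads. Without Ps replicate 1 its ratio was -0.96 and the call was lost (adjusted p 0.066). Mir5125 had more reads, 122 to 175 in CB and 10 to 24 in Ps (6.15-fold). The libraries held fragments of longer RNA, so these values describe RNA from the loci and not the mature microRNAs.

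Other RNAs among the 15 lowest ratios included Rsrp1 and Leng8. Rsrp1, an arginine- and serine-rich protein, had 5.97, 5.98, 6.62 and 6.30 in CB and 4.0, 4.07, 3.67 and 3.58 in Ps (log2 ratio -2.39, SE 0.159, adjusted p 4.1e-10). Leng8, a nuclear protein linked to mRNA export, had 7.86, 7.74, 7.84 and 7.81 in CB and 5.67, 5.63, 5.81 and 5.82 in Ps (log2 ratio -2.08, SE 0.0734, adjusted p 3.62e-13). Their lack of overlap between fractions was part of the rule. Srrm2, a large scaffold of nuclear speckles, was lower in Ps by 2.39-fold and Srsf1, a splicing factor, by 1.74-fold. The class of splicing factors and hnRNPs as a whole did not follow them, since 46 of 92 were higher in Ps and 17 in CB (median 0.23). Snrpg, a small core protein of the spliceosome, was higher in Ps by 2.65-fold.

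Of 314 zinc finger proteins with numbered names (Zfp, Zbtb, Zscan and Zkscan) 125 (39.8%) were higher in CB and 31 (9.87%) in Ps. Over all genes these shares were 31.2% and 29.1%. The median of the list was -0.24. This median was -0.12 with the GC and length trend removed and, relative to all genes, -0.13 without CB replicate 3. The Zfp217 mRNA was lower in Ps by 2.67-fold and that of Zbtb48 by 2.89-fold. Of 62 chromatin modifiers 29 were higher in CB and 7 in Ps (median -0.24). The CB-enriched members were Kmt2d and Kmt2b, histone methyltransferases (2.66-fold and 2.17-fold), and Tet3, a methylcytosine dioxygenase (2.26-fold). Kmt2d had 6.87, 6.92, 6.86 and 6.93 in CB and 5.34, 5.37, 5.62 and 5.60 in Ps. The median of the list was 0.0037 with that trend removed and, relative to all genes, -0.14 without CB replicate 3. Of 27 nuclear pore proteins 13 were higher in CB and 4 in Ps (median -0.19, or -0.076 with that trend removed), with Pom121 lower in Ps by 2.50-fold and Tpr higher by 2.00-fold. Of 14 replication-dependent histone genes 2 were higher in Ps and 0 in CB (median 0.18, or -0.068 with that trend removed). Relative to all genes the histone median was 0.086 to 0.35 with a library left out.

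mRNAs for collagens and other extracellular matrix proteins were mostly higher in CB. Of 27 collagens 24 were higher in CB and 0 in Ps, 17 were CB-enriched, and the median log2 ratio was -1.31. Col1a2, a chain of type I collagen, had 13.11, 13.06, 13.09 and 13.19 in CB and 11.47, 11.51, 11.87 and 11.78 in Ps (2.75-fold, adjusted p 2.52e-10). Col11a2, a minor fibrillar chain, had 3.98, 4.04, 4.27 and 4.2 in CB and 2.28, 2.33, 1.65 and 2.09 in Ps (4.09-fold, adjusted p 3.84e-10). Col1a2 was lower in every Ps library. So was Col11a2, but it is among the 15 lowest ratios, for which the rule required this. Col16a1 (3.31-fold), Col5a3 (3.22-fold) and Col4a5 of basement membranes (3.14-fold) were also among the 15 lowest ratios. Col8a1 had the smallest named change (1.53-fold, adjusted p 0.00374). Collagen mRNAs took 3.57%, 3.46%, 3.91% and 3.89% of CB reads and 0.981%, 1.10%, 1.37% and 1.34% of Ps reads, a share 3.09 times as large in CB (exact permutation p 0.0286).

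Of 41 matrix glycoproteins and proteoglycans 26 were higher in CB and 5 in Ps, 16 were CB-enriched, and the median was -0.79. Agrn, agrin, a matrix proteoglycan not counted in this list, had 6.91, 6.87, 6.80 and 6.88 in CB and 5.00, 5.12, 5.27 and 5.22 in Ps (3.27-fold, adjusted p 3.48e-12). On the list, Hspg2, perlecan (2.83-fold), Lamb2, a laminin chain (2.77-fold), and Emilin1 of elastic fibers (2.52-fold) were CB-enriched. Bgn, the small proteoglycan biglycan, was an exception, higher in Ps by 1.48-fold (adjusted p 1.57e-05). The class took 3.02% ± 0.0297 of reads in CB and 1.52% ± 0.0891 in Ps. The GC and length trend moved with both classes, and with it removed the medians were -0.74 for collagens and -0.48 for glycoproteins.

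Genes of ER translocation and folding were divided. Of 49, 25 (51.0%) were higher in CB and 16 (32.7%) in Ps, beside 31.2% and 29.1% over all genes (median -0.26). Plod1 (2.33-fold), a lysyl hydroxylase, and P4ha2 (2.09-fold), a prolyl hydroxylase, which both modify collagen chains, and Pdia4 (2.14-fold), a disulfide isomerase, were CB-enriched. Sec61g (2.38-fold) and Ost4 (1.89-fold), small membrane subunits of the translocon and of the oligosaccharyltransferase, were higher in Ps. Sec61g shares 52.6% of its 50-base stretches with another gene, and 53.2% of Ost4 exons are overlapped by Agbl5 on the opposite strand.

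mRNAs for cell surface proteins were mostly higher in CB in the lists examined. Of 28 plasma membrane solute carriers 25 were higher in CB and 0 in Ps (median -0.89). Slc2a1, a glucose transporter, had 8.72, 8.68, 7.93 and 8.07 in CB and 7.23, 7.31, 6.87 and 6.81 in Ps. The groups did not overlap, and it was lower in Ps by 2.46-fold, as was Slc1a4, an amino acid transporter, by 2.32-fold. Slc39a10 (-0.14, adjusted p 0.566) did not pass the test. Of 29 receptor tyrosine kinases 21 were higher in CB and 2 in Ps, 9 were CB-enriched, and the median was -0.86. Pdgfrb, a receptor of PDGF, had 8.32, 8.28, 8.27 and 8.37 in CB and 6.80, 6.91, 7.26 and 7.20 in Ps (2.41-fold, adjusted p 2.92e-09), and Ror2, a Wnt receptor, was lower by 2.68-fold. The receptors higher in Ps were Ddr2 (2.52-fold), with 6.45, 6.37, 7.31 and 6.68 in CB and 7.93, 8.10, 8.11 and 8.0 in Ps, and Ryk, a Wnt receptor (log2 ratio 0.29, adjusted p 4.88e-05, but -0.0054 with total reads). Ddr1, the other collagen receptor of the family and a paralog of Ddr2, had a log2 ratio of -1.18 (adjusted p 5.74e-10).

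Of 17 integrins, which bind matrix, 11 were higher in CB and 1 in Ps (median -0.49). Itga5, the fibronectin receptor chain, had 9.52, 9.48, 9.43 and 9.62 in CB and 8.01, 8.07, 8.40 and 8.34 in Ps (2.48-fold, adjusted p 1.28e-10), and Itga3 was lower by 2.28-fold. Families of guidance receptors and adhesion proteins were examined after values were seen. Of 21 semaphorins and plexins 14 were higher in CB and 0 in Ps, 10 were CB-enriched, and the median was -1.11. Sema6c (3.19-fold) and Sema4c (3.15-fold) were among the 15 lowest ratios, and the scarcer Sema6b was lower by 3.19-fold. Of 13 cadherins 8 were higher in CB and 0 in Ps (median -0.83), among them Cdh15 (2.49-fold).

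Other genes among the 15 lowest ratios were Dennd6b (4.12-fold), a Rab exchange factor, Abcc10 (3.31-fold), an efflux pump, and Pnpla6 (3.12-fold), a lipase of the ER. The entry PCDHGB6 (3.58-fold), a protocadherin, had no match in the annotation, so its position is not given. For the V-ATPase, the proton pump of lysosomes, 7 of 19 subunits (36.8%) were higher in Ps and 6 (31.6%) in CB. These are close to the shares over all genes (29.1% and 31.2%). The median was 0.12, or 0.014 with the GC and length trend removed. Relative to all genes it was 0.054 to 0.16 with a library left out. The subunits were then grouped by the parts of the enzyme, after values were seen. Of 9 subunits of the cytoplasmic V1 part 6 were higher in Ps and 0 in CB (median 0.38). Of 10 subunits of the membrane V0 part and accessory membrane proteins 1 was higher in Ps and 6 in CB (median -0.44). With the GC and length trend removed these medians were 0.079 and -0.70, beside 0.024 for all genes. Atp6v1f had a log2 ratio of 0.71, which fell to 0.13 with the GC and length trend removed, and Atp6v0a2 and Atp6ap1 had -1.07 and -1.03.

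**Figure D4:**
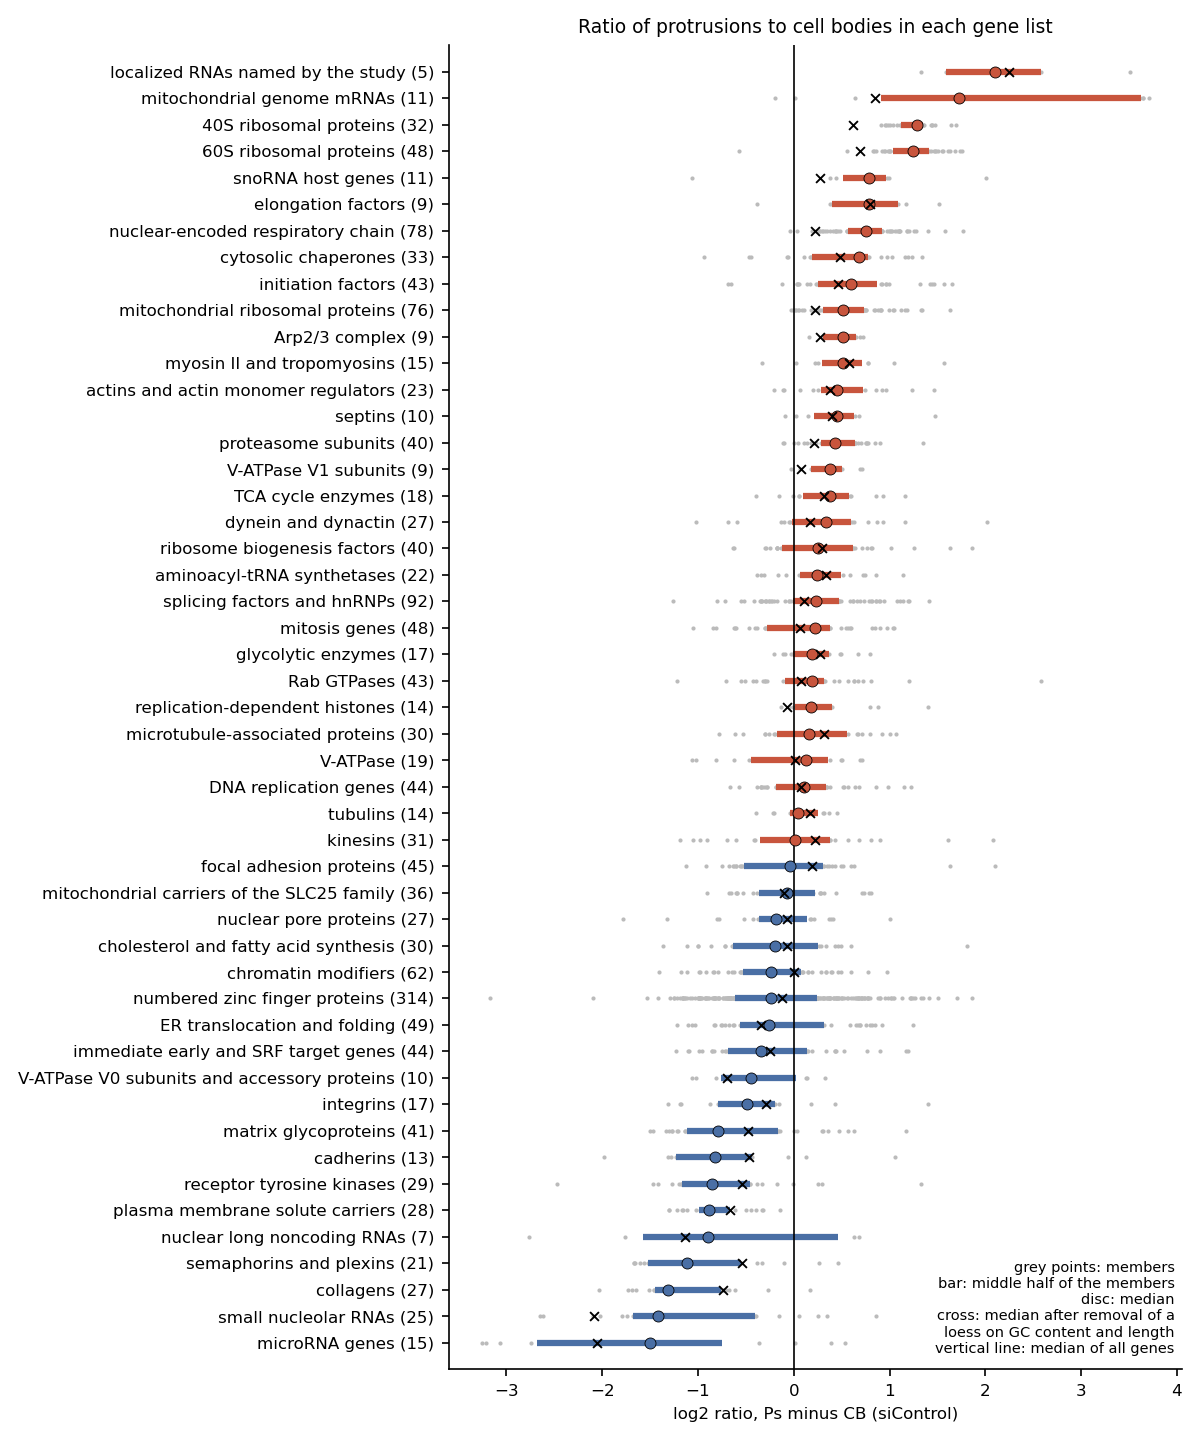
Median log2 ratio (Ps minus CB) of the members of each gene list, as a disc, with members as grey points, a bar from the 25th to the 75th percentile, the median with the GC and length trend removed as a cross, and the all-gene median (-0.00091) as a line. Apart from the localized RNAs of the study, mitochondrial genome mRNAs (1.73) and ribosomal proteins (1.29 and 1.24) lie farthest to the right, and microRNA genes (-1.50), small nucleolar RNAs (-1.42) and collagens (-1.31) farthest to the left.

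Cell cycle and early response genes showed no common side or a modest one. Of 44 DNA replication genes 13 (29.5%) were higher in Ps and 6 (13.6%) in CB, beside 29.1% and 31.2% over all genes. Their median was 0.11, and relative to all genes 0.011 without CB replicate 3 and 0.017 without Ps replicate 2. Rfc4, a clamp loader subunit, was higher in Ps by 2.34-fold. Of 48 mitosis genes 9 (18.8%) were higher on each side (median 0.22, or 0.062 with the GC and length trend removed). Relative to all genes their median was 0.14 without CB replicate 3 and 0.10 without CB replicate 4. It was 0.14 without Ps replicate 1 and 0.046 without Ps replicate 2. Plk1, a mitotic kinase, was lower in Ps by 1.79-fold. Of 44 immediate early genes and targets of serum response factor 19 were higher in CB and 4 in Ps (median -0.35). Relative to all genes this median was -0.19 without CB replicate 3, -0.20 without Ps replicate 1 and -0.22 without Ps replicate 2, and -0.080 without both CB replicate 3 and Ps replicate 2. Dusp1, a phosphatase of MAP kinases, had 6.83, 6.99, 6.42 and 6.70 in CB and 5.48, 5.73, 5.34 and 5.47 in Ps (2.35-fold, adjusted p 9.85e-08). Medians near 0 depend on the scaling: with total reads and no shift for the median gene, those of DNA replication, mitosis, histones, splicing factors, glycolysis, kinesins, tubulins, microtubule-associated proteins, Rab GTPases and the V-ATPase were negative.

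Length and base composition of the transcript moved with the ratio across the whole set. Over 9767 coding genes with a mean log2 CPM of at least 1, Spearman correlations of the ratio were -0.31 with transcript length, -0.38 with coding length, -0.13 with 3′ UTR length, -0.15 with the number of exons and -0.38 with GC content. These points share the same 8 libraries. With genes in 10 bins of like size, the bin of the shortest transcripts (341 to 1213 bases) had a median ratio of 0.55, with 753 of 977 higher in Ps and 58 in CB. In the bin of the longest (6431 bases and above) it was -0.19, with 158 and 432. In the bin with the lowest GC content (33.9% to 42.7%) 497 were higher in Ps and 52 in CB, and in the bin with the highest (58.4% to 72.9%) 174 and 554. Median transcript length was 827 bases for 40S proteins and 850 bases for nuclear respiratory subunits, but 5930 bases for collagens, with a GC content of 57.7%, and 5012 bases for receptor tyrosine kinases. How much of each ratio length and composition account for, in the cells or in the libraries, cannot be told apart here. With their trend removed the median was 0.28 for snoRNA host genes, 0.17 for dynein and dynactin and 0.11 for splicing factors. It was -0.54 for semaphorins and plexins, -0.47 for cadherins, -0.54 for receptor tyrosine kinases and -0.29 for integrins. With it removed the Ps-enriched and CB-enriched RNAs numbered 424 and 530 of 12875.

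**Figure D5:**
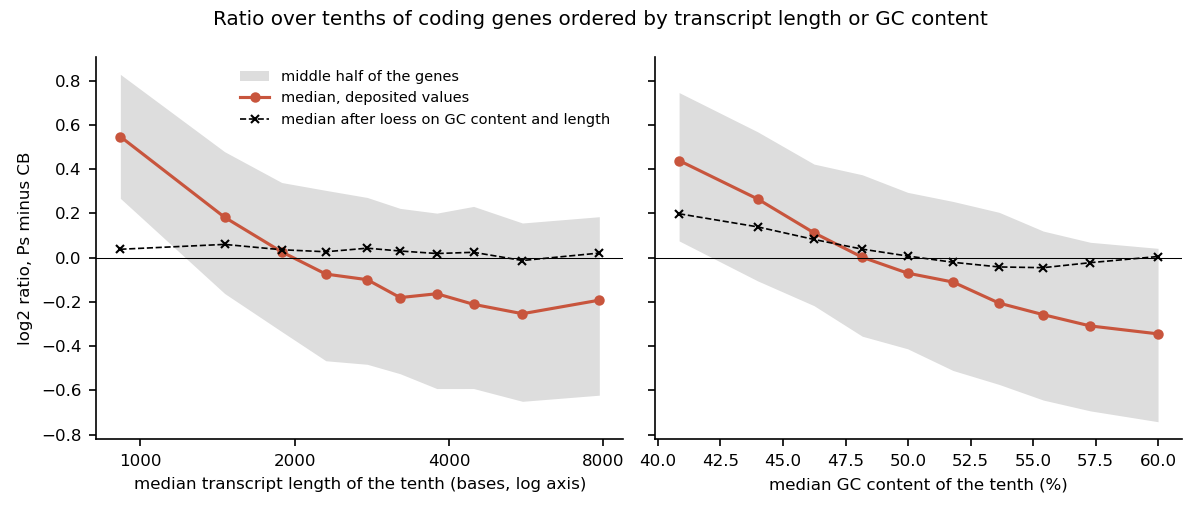
Log2 ratio (Ps minus CB) in 10 bins of coding genes ordered by transcript length and by GC content, as the median (red) with the range from the 25th to the 75th percentile (grey), and the median with the GC and length trend removed (black). The x axes show the median length in bases (log axis) and the median GC content in percent of each bin. The median falls from 0.55 to -0.19 with length and from 0.44 to -0.34 with GC content.

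The same contrast in siAPC cells gave the named genes beside their siControl values. Medians of the main groups in siAPC were 1.20 for 40S proteins (1.29 in siControl), 0.63 for nuclear respiratory subunits (0.75) and -1.29 for collagens (-1.31). Larger gaps stood in the localized RNAs of the study (1.47 beside 2.10), small nucleolar RNAs (-0.86 beside -1.42) and nuclear long noncoding RNAs (-0.12 beside -0.89). These lists were not tested for a difference between siRNAs. The study names the localized RNAs as examples of APC-dependent RNAs, a group it set from the change of Ps enrichment with siAPC in these libraries. Their gap, with that of Cyb5r3 below, is therefore not independent evidence. Of the genes named, 2 had a ratio that differed between siRNAs at an adjusted p below 0.05 over all genes. For Cyb5r3 it was 2.73 in siAPC beside 3.51 in siControl, and the interaction term was -0.78 (SE 0.130, adjusted p 0.0433, limma). For Scd1 it was 1.17 beside 1.81, with a term of -0.64 (SE 0.102, adjusted p 0.0433). Over all genes 3 passed.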

How the data were processed

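RNA was sequenced by the authors as paired reads from stranded libraries of NIH/3T3 fractions. Per the labels and the study's methods, reads were split with bcl2fastq 1.8.4, aligned to mm10 with STAR 2.4.2a and a GENCODE annotation (release 4), counted per gene with Rsubread and normalized with limma 3.26.1. Whether counting used strand is not given in the sources used here. The values deposited by the authors are log2 CPM from limma-voom: reads plus 0.5 relative to a scaled library size. Inverting this gave whole reads (within 0.01) for 100% of 208240 values, which supplied depths, read numbers and read shares. Methods call for a minimum log value in at least 1 library.

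Groups came from the labels. limma 3.58.1 in R 4.3.3 (lmFit, eBayes with an intensity trend) was fitted to the 16 libraries together, each group with its mean, without a block. A call needed an adjusted p (Benjamini-Hochberg, 13015 genes) below 0.05 or, for enrichment, over 2-fold with an unadjusted p below 0.05. Errors are standard errors of the contrast or SD over 4 libraries. Read shares were compared by an exact two-sided permutation test in Python 3.11.15 (numpy 2.4.6, pandas 2.3.3). The fit was tested on simulated data. Counting floors cover counting error only, since reads carry no molecular identifiers.

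Genes and lists were chosen with earlier results of these data known. The rule named 7 genes of the study, the 15 highest and 15 lowest ratios among genes with a mean of at least 3, no overlap between groups and an adjusted p below 0.05 (leaving out predicted genes, pseudogenes, clones and mitochondrial genes), and up to 3 members with the highest and lowest ratio in each of 46 lists among members with a mean of at least 1. From these the text takes a selection, and it says where genes or the 5 further lists were chosen after their values were seen. Ddr1, Kif5a, mt-Co1, mt-Co2, mt-Atp6, mt-Nd3 and mt-Nd4 were also named after their values were seen. A list and a few genes are not reported here. Lists are described by counts and medians, with no set test. Of the genes, 12875 (98.9%) matched GENCODE M21 (GRCm38, the assembly also called mm10), 449 of them by an older symbol. Its models may differ from those counted. Promoter and hairpin sequences came from RefSeq (GRCm38.p6). Alternatives were total-read and quantile scaling, other weights, a filter on low values, siControl libraries only, a replicate block, removal of a loess trend on GC content and length (span 0.5), other thresholds, and each library left out.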

Additional observations from a re-analysis of the deposited data

Results flagged for a closer look

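In a group of 4 libraries a value stood apart when its gap to the nearest other library was over 0.829 of the range of the group (Dixon's critical value). Of 322 groups of 4 tested, for the genes named and the read shares, 30 (9.32%) had such a library, where chance gives about 5%. In 19 of the 30 it was CB replicate 3, which is also the CB library whose values fell with GC content. The part of composition in these values was not tested.

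CB replicate 3 was above the other CB libraries in log2 CPM for Sh3bgrl (4.80), Npm1 (8.40), Malat1 (7.82), Eif3e (7.60), Ncl (7.15), mt-Cytb (10.15), mt-Nd4 (8.60), Map1b (3.96), Sept7 (4.96), Hsp90aa1 (5.52) and Tpr (4.90). It was below them for PCDHGB6 (8.06), Sema6c (3.81), Pnpla6 (4.98), Eif4g1 (9.17), Uqcrc1 (7.81) and Tmsb10 (9.04). Its share of listed reads was above the others for mitochondrial genome mRNAs (1.91%) and for Malat1 with Neat1 (0.103%). CB replicate 4 was high for the share of actins (1.14%), and CB replicate 2 was high for Aimp1 (5.89).

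Among Ps libraries, replicate 1 was high for Rps3 (11.95), Rps26 (11.92), Vim (13.08) and mt-Nd3 (2.23), and low for Zfp217 (2.64) and Erbb3 (0.22). Replicate 2 was high for Snhg3 (2.21) and Slc1a4 (6.22) and low for Kmt2b (5.34).

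The ratio of Ps to CB differed between siRNAs by the interaction term of the limma fit for Cyb5r3 (siAPC minus siControl -0.78, adjusted p 0.0433) and Scd1 (-0.64, adjusted p 0.0433). In both genes the ratio was above 0 with either siRNA.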

How the results depend on the processing

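Scaling to total listed reads gave 2005 RNAs higher in Ps, 6193 higher in CB, 492 Ps-enriched and 1913 CB-enriched. Restriction to genes with a mean log2 CPM of 1 or more gave 535 Ps-enriched and 574 CB-enriched, removal of the GC and length trend 424 and 530, and a limit of 1.5-fold 2211 and 2409. Leaving out each library gave 849 to 1083 Ps-enriched, 833 to 945 CB-enriched, 3495 to 3995 higher in Ps and 3768 to 4127 higher in CB. Quantile scaling, voom weights, library weights, no intensity trend, siControl libraries only, and leaving out both libraries with a GC trend kept the 4 counts within 1.5 times. Same-numbered libraries did not deviate together throughout (correlations 0.34, -0.12, -0.12 and 0.43 over 10292 genes), so the numbers were not taken as pairs. A fit with the replicate block gave 3968 higher in Ps, 4226 higher in CB, 957 Ps-enriched and 888 CB-enriched, and CB replicates 2 and 3 correlated best with Ps replicates 1 and 2.

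Among named genes, ratios that passed the test in at least 1 of the 2 fits and changed sign were mt-Nd6 with the GC and length trend removed (-1.64), mt-Nd2 likewise (-0.48), Ryk with total reads (-0.0054), Actr3 with total reads (-0.14) and with that trend removed (-0.019), and Arpc4 with total reads (-0.0032). The ratios of mt-Nd6 and Uqcrc1, which did not pass the test, also crossed 0 with a library left out (-0.12 to 0.19 and -0.11 to 0.030). The median of small nucleolar RNAs turned to 0.88 when set beside genes past a mean of 1 and to 0.86 beside all genes, because 1 member, Snord104, passes that filter. Of the medians of 51 lists, relative to all genes, by more than the spread between pairs, 38 moved with the GC and length trend removed, 10 with quantile normalization, and 5 without both GC-trend libraries, and 14 values did so with a library left out, 5 of them for immediate early genes and 3 for DNA replication. Read shares cannot pass with a library left out (smallest exact p 0.0571) or with same-numbered libraries paired in a sign-flip test (smallest p 0.125), so those alternatives say nothing of their stability. Few reads, and a filter that scarce RNAs can pass through 1 fraction, limit the small nucleolar RNAs, microRNA genes and processed pseudogenes. The causes of the other changes were not tested.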
